A study of Mus musculus with 6 samples.

Results

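The genes described here carry fatty acids and ketone bodies into mitochondrial oxidation. They were chosen as a list of 35 pathway members by their known place in the route, from fatty acid uptake through the carnitine shuttle and beta-oxidation to ketone use. Earlier results of these data were known when the list was chosen, so its counts beside those of all genes are descriptive. For each gene the probe with the highest mean value was taken among probes that carry that symbol alone, which gave 33 measured members among 22180 genes tested. Acsl1, the main long-chain acyl-CoA synthetase of the heart, and Cpt1b, the muscle form of the outer-membrane carnitine palmitoyltransferase, had no such probe and were not analysed here. RNA of whole mouse hearts, strain Mixed C57BL/6 x 129S6, was measured on 6 arrays. The 3 control samples carried Nkx2.5-Cre, a Cre recombinase expressed in cardiac progenitors and their descendants, and the 3 transgenic samples carried Nkx2.5-Cre together with R26R-miR302-367, a Cre-dependent copy of the miR-302-367 microRNA cluster at the Rosa26 locus. Both groups thus carried the Cre driver, and the series asks how raising the cluster affects heart muscle proliferation and differentiation. The labels conflict on age, with postnatal day 14 in the source name and harvest protocol and E14 in the age field. Whether each sample is a separate animal is not stated. The p-values therefore refer to the spread among the 6 samples, some or all of which may be technical.

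Long-chain fatty acids are the main fuel of the mature heart. They enter the cell through CD36 and fatty acid transport proteins, are bound to coenzyme A, cross the mitochondrial membranes as carnitine esters, and are shortened by repeated rounds of dehydrogenation, hydration, a further dehydrogenation and thiolysis. The electrons of the first dehydrogenation pass through the electron transfer flavoprotein to ubiquinone, and ketone bodies join the route as acetyl-CoA after activation by a CoA transferase. Many of these genes, though not all, rise in the heart around birth and are known targets of the nuclear receptors PPAR alpha and ERR alpha with their coactivator PGC-1 alpha. The fetal heart relies more on glycolysis and lactate.

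Mature 3p sequences encoded by the introduced cluster are given to show what the transgene carries, with the seed (bases 2 to 8) in capitals. They are from RefSeq on GRCm38.p6, and the 3p form of miR-302a, also part of the cluster, is not shown.
miR-302b-3p: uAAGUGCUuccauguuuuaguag
miR-302d-3p: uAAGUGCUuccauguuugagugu
miR-302c-3p: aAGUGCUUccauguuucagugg
miR-367-3p: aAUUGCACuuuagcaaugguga
The b and d forms share the seed AAGUGCU, the listed c form has AGUGCUU and miR-367 has AUUGCAC. On the arrays the Mir302c probe had log2 values of 3.60, 3.53 and 2.98 in control samples and 9.999, 9.97 and 9.97 in transgenic samples. All 5 probes of the cluster's genes lay above every control value in each transgenic sample, and Mir302b, the smallest of these differences, was higher by 2.99 on the log2 scale. The arrays report the precursor genes, and mature microRNAs were not measured here.

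Of the 33 measured members 17 fell and 0 rose (limma, adjusted p under 0.05 over all genes), while 5.76% of all genes were called lower and 5.35% were called higher. At an unadjusted p under 0.05 24 members were lower and 1 was higher, beside 13.4% and 11.9% of all genes. The median difference was -0.34 on the log2 scale over the members and -0.03 over all genes. In 27 members every transgenic sample lay below every control sample, a pattern held by 16.7% of all genes, and in 1 member, Cpt1a, every transgenic sample lay above, as did 14.2% of all genes. The largest fall was that of Oxct1, the CoA transferase of ketone use, at 2.47-fold, and the next were those of Ech1 at 1.72-fold and Cpt2 at 1.71-fold. The number of members called lower was 9 without control 2, 8 without transgenic 1 and 7 without transgenic 2, and it lay between 12 and 17 when any other array was left out. Calls over all genes, in either direction, also fell, from 2465 with all arrays to 1804, 1217 and 1171 in these first 3 settings. With another array left out they were 1378 to 2249. Xist was high in 1 control and 2 transgenic samples, and with a term for this split (the sex term) 16 members were called lower. The sex term left 1878 genes called in either direction. Calls of Lpl, Cpt2, Acadvl, Eci1, Decr1, Ech1 and Oxct1 held in all 15 alternative settings tried.

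**Figure D1:**
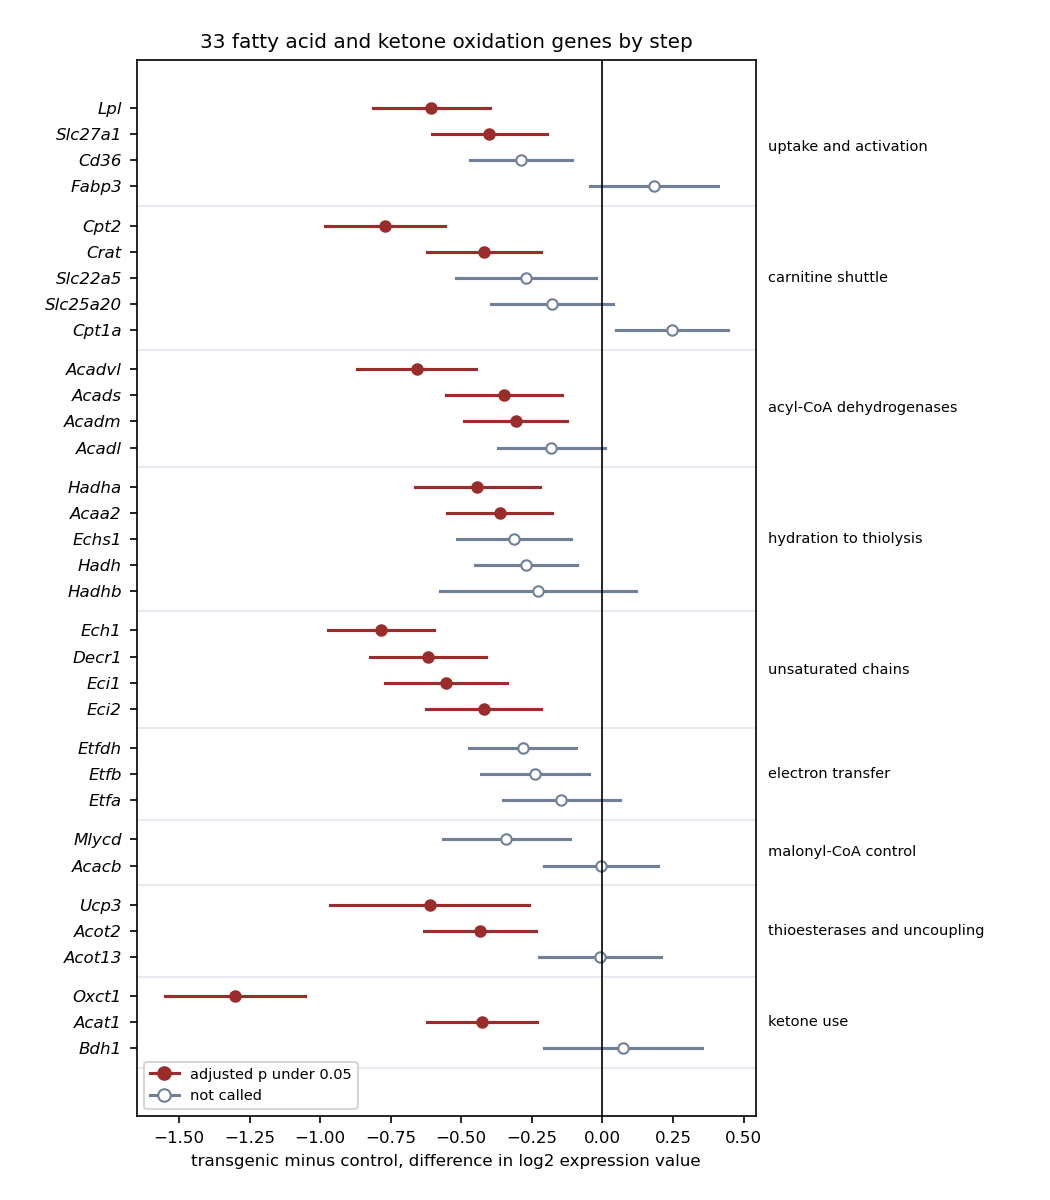
Difference between transgenic and control samples in log2 expression value (x axis) for the 33 measured members, grouped by step; points are limma estimates, bars are 95% intervals, filled red points have an adjusted p under 0.05 and open grey points do not. The 17 filled points all lie below 0, and Oxct1 lies farthest from 0 at -1.30.

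In each of the 3 transgenic samples the members' median lay below the control mean. Against each gene's control mean, the median over the 33 members was -0.35, -0.40 and -0.27 on the log2 scale in transgenic samples 1, 2 and 3. In control samples 1, 2 and 3 it was -0.02, 0.02 and -0.0096. These control medians lie near 0 by construction, because the control mean comes from the same 3 samples. Transgenic sample 1 was below the control mean in 27 members, and transgenic samples 2 and 3 in 30 members each. Control samples 1, 2 and 3 were below the control mean in 23, 15 and 18 members. Between the groups the difference was negative in 30 of 33 members and in 12567 of 22180 genes. The SD within a group had a median over members of 0.078 in control and 0.088 in transgenic samples, both well under the members' median difference.

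**Figure D2:**
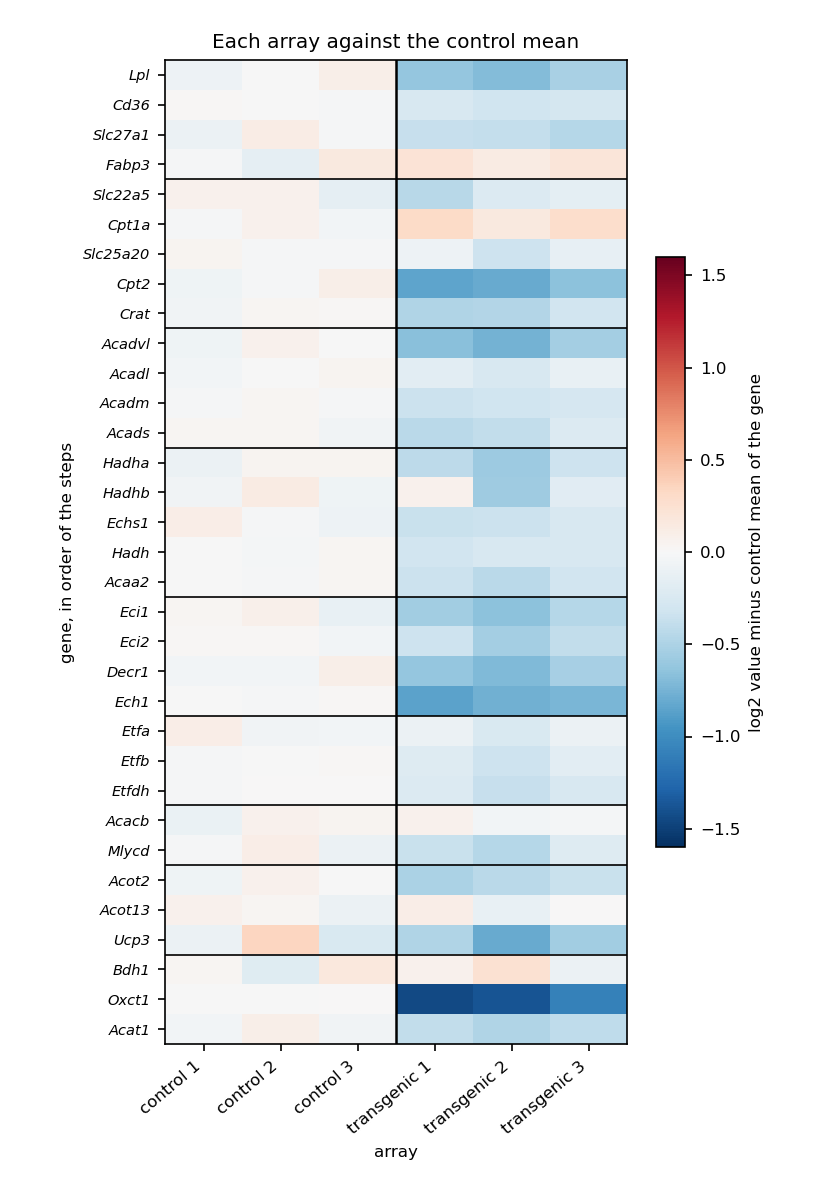
Log2 value on each of the 6 arrays (columns) minus the gene's control mean, for the 33 members in the order of the steps (rows); blue is below and red above the control mean, black horizontal lines separate steps. The transgenic columns are blue in most rows, with Oxct1 darkest, and Fabp3 and Cpt1a are pale red there.

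Among genes of uptake, Lpl fell most. Lpl encodes lipoprotein lipase, which frees fatty acids from circulating triglyceride at the capillary wall. Its log2 values were 11.87, 11.94 and 12.04 in control and 11.34, 11.26 and 11.44 in transgenic samples, 1.52-fold lower with no overlap (difference -0.61, SE 0.091, adjusted p = 0.004414). Its other probe, a dim one, had a difference of -0.41 (adjusted p = 0.0905 when all probes were fitted as rows). Slc27a1, a fatty acid transport protein of muscle, fell by 0.40 (adjusted p = 0.02454). The Slc27a1 adjusted p rose to 0.06745 when control 2 was left out, and to 0.07037, 0.07802 and 0.08411 when transgenic 1, 2 and 3 were. Cd36, the main fatty acid translocase of heart, had control values of 12.34, 12.31 and 12.30 and transgenic values of 12.06, 11.99 and 12.03. The Cd36 groups did not overlap, yet its difference of -0.29 was just outside the threshold (95% interval -0.47 to -0.11, adjusted p = 0.05029). Fabp3, the heart fatty acid binding protein that carries fatty acids through the cytosol, was at 9.11, 8.98 and 9.29 in control and 9.35, 9.26 and 9.31 in transgenic samples. These Fabp3 values overlap, and the difference of 0.18 did not pass (95% interval -0.04 to 0.41, adjusted p = 0.2978). A dimmer Fabp3 probe had a difference of -0.03 (adjusted p = 0.8719 when all probes were fitted as rows).

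In the carnitine shuttle Cpt2 and Crat fell, and the other three measured genes were not called. Cpt2, the inner-membrane palmitoyltransferase that returns acyl groups to CoA in the matrix, was at 10.80, 10.85 and 10.97 in control and 10.03, 10.06 and 10.22 in transgenic samples. The Cpt2 groups stood well apart, with a difference of -0.77 (SE 0.094, adjusted p = 0.001735). Crat, the matrix carnitine acetyltransferase that buffers acetyl-CoA, fell by 0.42 (adjusted p = 0.01849), a call lost without control 2 (0.05269), transgenic 1 (0.07766) or transgenic 2 (0.07872) and with the mean of both Crat probes (0.06075). Cpt1a, the outer-membrane form best known from liver and fetal heart, had log2 values of 9.46, 9.55 and 9.44 in control and 9.78, 9.63 and 9.76 in transgenic samples. It was the only member with all transgenic values above all control values, and its difference of 0.25 did not pass (95% interval 0.05 to 0.44, adjusted p = 0.112). With an intensity trend and robust variance the Cpt1a adjusted p was 0.03639. Slc25a20, the carrier that exchanges acylcarnitine for carnitine across the inner membrane, was at 10.45, 10.38 and 10.38 in control and 10.33, 10.08 and 10.28 in transgenic samples. Its groups did not overlap but lay close, with a difference of -0.18 (95% interval -0.39 to 0.04, adjusted p = 0.2854). Slc22a5, the plasma membrane carnitine transporter, had a difference of -0.27 (adjusted p = 0.1574).

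The acyl-CoA dehydrogenases open each round of beta-oxidation and differ in the chain length they prefer. Of these 4 genes 3 fell. Acadvl, the very-long-chain enzyme, had values of 10.22, 10.36 and 10.27 in control and 9.61, 9.52 and 9.74 in transgenic samples. It was 1.58-fold lower with clear separation (difference -0.66, SE 0.093, adjusted p = 0.003328). Acads, the short-chain enzyme, fell by 0.35 (adjusted p = 0.04092), and Acadm, the medium-chain enzyme, fell by 0.31 (adjusted p = 0.04163). Both calls sat near the threshold. Leaving out control 1 or 2 ended the Acads call (0.117 and 0.09395), as did leaving out transgenic 1 or 2 (0.1417 and 0.1369), and the Acadm call ended without any 1 of the 6 arrays, at adjusted p-values from 0.05975 without control 3 to 0.1345 without transgenic 1. With the replicate number as a block the values were 0.08011 for Acads and 0.08473 for Acadm, with the sex term 0.06366 and 0.07261, and with arrays centred on their medians 0.05317 and 0.05848. Acadl, the long-chain enzyme, was at 11.79, 11.82 and 11.88 in control and 11.66, 11.57 and 11.71 in transgenic samples, without overlap. Its difference of -0.18 was the smallest of the 4 (95% interval -0.37 to 0.01, adjusted p = 0.2215).

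Of the 5 genes for hydration, the further dehydrogenation and thiolysis, 2 fell and the other three had negative differences. Hadha encodes the alpha subunit of the mitochondrial trifunctional protein, which carries out these steps on long chains. Its values were 12.19, 12.32 and 12.33 in control and 11.86, 11.70 and 11.95 in transgenic samples, with no overlap and a difference of -0.44 (SE 0.097, adjusted p = 0.02222). The Hadha call was lost without control 2 (0.05977), transgenic 1 (0.06991) or transgenic 2 (0.08898). Hadhb, the beta subunit with the thiolase, was at 7.41, 7.596 and 7.41 in control and 7.54, 6.90 and 7.29 in transgenic samples. Its groups overlapped and its transgenic SD of 0.32 was the largest among the members, so that the difference of -0.23 has a wide 95% interval of -0.58 to 0.12 (adjusted p = 0.409). Acaa2, the mitochondrial thiolase for shorter chains, fell by 0.36 (adjusted p = 0.02463), a call lost without any array but control 3, at adjusted p-values from 0.0538 without control 2 to 0.101 without transgenic 2, and with the replicate number as a block (0.05204). Echs1, the short-chain enoyl-CoA hydratase, and Hadh, the hydroxyacyl-CoA dehydrogenase for shorter chains, had differences of -0.31 and -0.27 with adjusted p-values of 0.05489 and 0.06135. In both of these genes every transgenic value lay below every control value.

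Hadha and Hadhb are neighbours on chromosome 5 that start back to back, so the stretch between their starts is printed here (RefSeq, GRCm38.p6, chr5:30154981-30155252, plus strand, 272 bases). Hadhb runs off its right end on the plus strand and Hadha off its left end on the minus strand. A search for the nuclear receptor hexamer AGGTCA on both strands, which would be in capitals, found 0 matches in it.
between Hadha and Hadhb: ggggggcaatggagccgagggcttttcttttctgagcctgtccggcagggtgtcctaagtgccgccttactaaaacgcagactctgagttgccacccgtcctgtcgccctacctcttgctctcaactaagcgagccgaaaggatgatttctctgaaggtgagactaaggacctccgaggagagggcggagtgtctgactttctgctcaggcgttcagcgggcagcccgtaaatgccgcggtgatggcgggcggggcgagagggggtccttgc
Within each array the Hadha value minus the Hadhb value was 4.72 to 4.92 in control and 4.32 to 4.795 in transgenic samples. These ranges overlap, and the change in their mean was -0.22. The pair was chosen after its values were seen, and the change is given with no test.

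The auxiliary enzymes that let unsaturated fatty acids into beta-oxidation fell in all 4 cases. Ech1, which shifts double bonds of dienoyl-CoA, was at 12.47, 12.45 and 12.49 in control and 11.61, 11.70 and 11.74 in transgenic samples. Control and transgenic values were each tightly grouped and far apart (difference -0.79, SE 0.082, adjusted p = 0.0009007). Decr1, the mitochondrial dienoyl-CoA reductase, fell by 0.62 (adjusted p = 0.003947) and Eci1, an enoyl-CoA isomerase, fell by 0.55 (adjusted p = 0.00788). Eci2, the isomerase found in both peroxisomes and mitochondria, moved least of the 4, from 9.62, 9.62 and 9.56 to 9.27, 9.06 and 9.21. It did not overlap between groups and fell by 0.42 (SE 0.090, adjusted p = 0.01933), and its adjusted p was 0.06824 and 0.05216 with control 1 or 2 left out and 0.08205 and 0.05465 with transgenic 2 or 3 left out. The median over these 4 genes was -0.59, against -0.33 for the dehydrogenases, -0.31 for the hydration to thiolysis genes and -0.24 for electron transfer, and whether the steps differ from one another was not tested.

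None of the 3 electron transfer genes was called, although all 3 had transgenic values below all control values and 2 of them had an unadjusted p under 0.05. Etfa and Etfb encode the electron transfer flavoprotein, and Etfdh the membrane oxidoreductase that hands its electrons to ubiquinone. Etfdh had values of 11.42, 11.44 and 11.44 in control and 11.22, 11.06 and 11.17 in transgenic samples. Its difference was -0.28 (95% interval -0.47 to -0.09, adjusted p = 0.06465). Etfb had a difference of -0.24 (95% interval -0.43 to -0.05, adjusted p = 0.1129). Etfa was at 11.16, 10.99 and 11.01 in control and 10.96, 10.81 and 10.96 in transgenic samples, so that the groups nearly touched (difference -0.15, 95% interval -0.35 to 0.06, adjusted p = 0.3765).

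Malonyl-CoA blocks the outer-membrane palmitoyltransferase, and 2 members set its level near the mitochondria. Acacb, the acetyl-CoA carboxylase that makes it there, was at 9.04, 9.22 and 9.19 in control and 9.22, 9.11 and 9.12 in transgenic samples. The Acacb values overlapped fully, with a difference of -0.0051 (95% interval -0.21 to 0.20, adjusted p = 0.9817). Mlycd, the decarboxylase that removes malonyl-CoA, was at 8.66, 8.78 and 8.58 in control and 8.31, 8.22 and 8.46 in transgenic samples. These groups did not overlap, and the difference of -0.34 fell just outside the threshold (95% interval -0.57 to -0.12, adjusted p = 0.06033).

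Of the thioesterases and the uncoupling protein, Ucp3 and Acot2 fell. Ucp3 encodes a mitochondrial carrier induced by fatty acids. Its values were 8.90, 9.33 and 8.75 in control and 8.51, 8.19 and 8.44 in transgenic samples, with the widest control spread of the members (SD 0.30) and still no overlap. It fell by 0.61 (SE 0.16, adjusted p = 0.03811), a call lost without any array but control 3, at adjusted p-values from 0.06727 without control 2 to 0.1338 without transgenic 2, and with the replicate number as a block (0.0657). Acot2, a mitochondrial acyl-CoA thioesterase, fell by 0.43 (adjusted p = 0.01514), with the call lost without transgenic 1 (0.06673) or transgenic 2 (0.05983). Acot13, another thioesterase, was at 11.36, 11.33 and 11.20 in control and 11.40, 11.18 and 11.30 in transgenic samples. Its groups overlapped, with a difference of -0.0073 (95% interval -0.22 to 0.21, adjusted p = 0.9746).

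The steepest fall in the whole list lay in ketone use. Oxct1 encodes succinyl-CoA:3-ketoacid CoA transferase, which activates acetoacetate and which liver lacks. Its log2 values were 9.59, 9.58 and 9.59 in control and 8.14, 8.20 and 8.51 in transgenic samples. The control samples were nearly identical and every transgenic sample lay far below them (difference -1.30, SE 0.11, adjusted p = 0.0003309). Acat1, the mitochondrial thiolase that splits acetoacetyl-CoA and also acts in isoleucine breakdown, was at 11.79, 11.92 and 11.78 in control and 11.43, 11.34 and 11.42 in transgenic samples. It fell by 0.43 without overlap (adjusted p = 0.01503), a call lost without transgenic 1 (0.05009) or transgenic 2 (0.06848). Oxct1 minus Acat1 within each array was -2.34 to -2.18 in control and -3.29 to -2.92 in transgenic samples. The mean of this difference changed by -0.87. This pair, too, was chosen after its values were seen, and the change is a description with no test. Bdh1, the mitochondrial hydroxybutyrate dehydrogenase, was at 4.82, 4.60 and 4.96 in control and 4.86, 5.03 and 4.70 in transgenic samples. It was the 1 member among the 33.3% of genes with the lowest mean values, its groups overlapped, and its difference was 0.07 (95% interval -0.21 to 0.35, adjusted p = 0.7792).

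**Figure D3:**
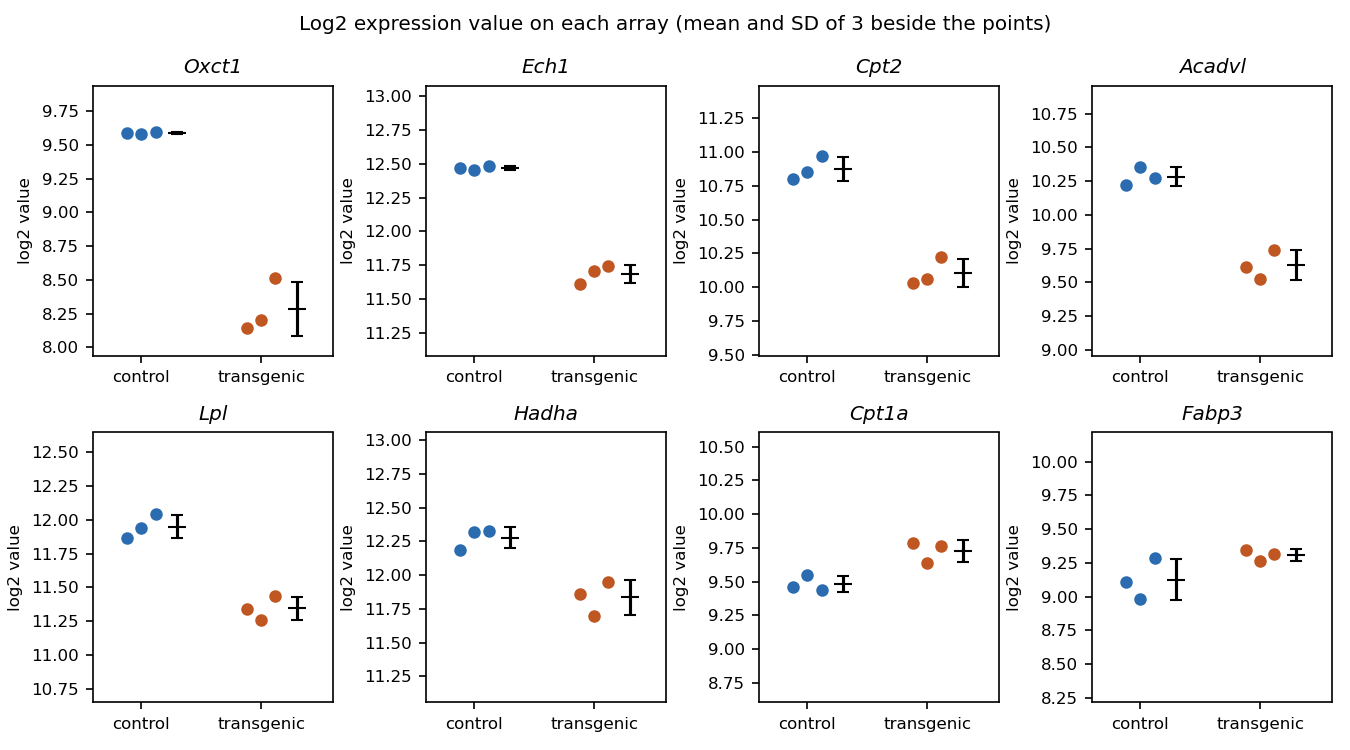
Log2 expression value (y axis, a span of 2 log2 units in each panel) on the 3 control arrays (blue) and 3 transgenic arrays (orange) for 8 members, with the mean and SD of each group beside the points. Groups are apart for Oxct1, Ech1, Cpt2, Acadvl, Lpl, Hadha and Cpt1a, the last with transgenic values above, and overlap for Fabp3.

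The members are bright probes on the whole. Their control means ran from 4.79 for Bdh1 to 12.77, with a median of 10.88. When the 33.3% of genes with the lowest means were left out before the fit, 22 members were called lower and 0 higher. Of the 14786 genes kept, 3019 were called in either direction, and 1507 of the 14786 (10.2%) were called lower.

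**Figure D4:**
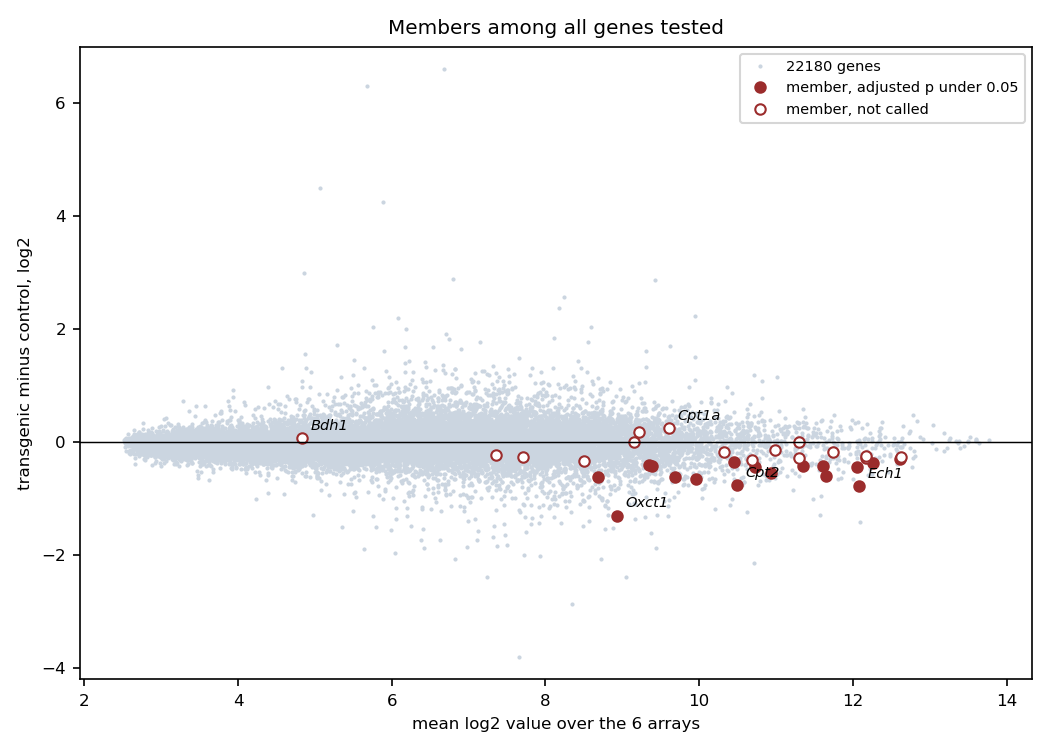
Difference between transgenic and control samples (y axis, log2) against the mean log2 value over the 6 arrays (x axis) for 22180 genes (grey) and the 33 members (red, filled where the adjusted p is under 0.05). Most members lie in the right part of the plot and below 0, with Oxct1 lowest at -1.30.

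Promoters of several members are shown because PPAR and ERR receptors bind elements built on the hexamer AGGTCA. RefSeq windows of GRCm38.p6, from 250 bases before to 50 after a gene's start, were matched for 27 of the 33 members (30 windows). AGGTCA on either strand was found in 7 of these windows (23.3%) and in 16.3% of all 32851 windows, in Acacb, Acadm, Acadvl, Cd36, Cpt1a, Echs1 and Ucp3. Of these 7 genes Acadm, Acadvl and Ucp3 fell. The longer forms AGGTCANAGGTCA and TCAAGGTCA, each of which contains the hexamer, were found in 0 member windows and in 0.0396% and 0.423% of all windows. A match is a description of letters, and binding was not measured here. The 250 bases before the starts of Oxct1, with the largest fall, and of Acadm and Ucp3, which have matches, follow with the hexamer of either strand in capitals. They lie at chr15:4026178-4026427 (plus strand), chr3:153944644-153944893 (minus strand) and chr7:100472741-100472990 (plus strand), each written on the strand of its gene.
Oxct1: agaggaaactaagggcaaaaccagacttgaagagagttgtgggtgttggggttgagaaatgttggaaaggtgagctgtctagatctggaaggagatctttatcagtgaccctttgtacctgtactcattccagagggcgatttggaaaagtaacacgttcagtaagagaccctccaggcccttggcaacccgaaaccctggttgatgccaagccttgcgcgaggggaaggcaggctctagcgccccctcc
Acadm: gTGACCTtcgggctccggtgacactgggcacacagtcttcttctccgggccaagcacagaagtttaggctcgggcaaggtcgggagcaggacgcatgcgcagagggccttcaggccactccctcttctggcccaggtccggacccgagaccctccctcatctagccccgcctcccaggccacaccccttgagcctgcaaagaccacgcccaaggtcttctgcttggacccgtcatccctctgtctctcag
Ucp3: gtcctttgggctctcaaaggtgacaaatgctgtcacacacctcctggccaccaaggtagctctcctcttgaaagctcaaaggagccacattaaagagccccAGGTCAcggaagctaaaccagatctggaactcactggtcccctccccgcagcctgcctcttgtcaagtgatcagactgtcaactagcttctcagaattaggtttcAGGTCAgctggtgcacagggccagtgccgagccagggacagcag
Oxct1 has 0 matches in these bases. Acadm has 1, beginning 249 bases before the start, and Ucp3 has 2, beginning 149 and 44 bases before it.

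Receptors and coactivators that act on this pathway had calls in both directions. Of 24 measured genes 5 fell and 1 rose, with a median of -0.05. Of all genes 5.76% were called lower and 5.35% higher, so the 1 rise is near its share. The same shares stand beside the counts of the other lists below. Rxrg, the gamma retinoid X receptor and a partner of PPARs, fell from 8.16 to 6.47 in mean log2 value (SE of the difference 0.12, adjusted p = 0.0001847). Ppard fell by 0.67 (adjusted p = 0.006132), and Esrrb, an orphan receptor of the ERR family, fell by 0.50 (adjusted p = 0.006906). Perm1, a muscle regulator of oxidative genes, fell by 0.41 (adjusted p = 0.03623), and Ppara, the receptor best known for control of fatty acid oxidation, fell by 0.43 (adjusted p = 0.04249). Leaving out any 1 array but control 3 ended the Perm1 call (0.08927 to 0.1092), and leaving out any 1 but transgenic 3 ended the Ppara call (0.06662 without control 3 to 0.1479 without transgenic 2). With the replicate number as a block Perm1 had an adjusted p of 0.05139 and Ppara 0.06327. The Ppara call also ended with the sex term (0.05741) and the Perm1 call with arrays centred on their medians (0.05411). Ppargc1a, which encodes PGC-1 alpha, had a difference of -0.28 (adjusted p = 0.1712) and Esrra, which encodes ERR alpha, -0.21 (adjusted p = 0.1595). Ppargc1b, which encodes PGC-1 beta, rose by 0.41 (adjusted p = 0.03931), a call that ended without any 1 array but control 3 (0.07698 to 0.1397) and with the replicate number as a block (0.05552) or the sex term (0.0579).

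Lipid storage genes moved mostly downward. Of 22 lipid droplet and triglyceride genes 10 fell and 1 rose, with a median of -0.33. Fitm2, which acts in droplet formation, fell by 1.88 (adjusted p = 1.587e-05), and Dgat2, which completes triglyceride synthesis, fell by 1.61 (adjusted p = 0.0003309). Plin5, a droplet coat protein that tethers droplets to mitochondria, fell by 0.91, and Agpat2, an acyltransferase of triglyceride synthesis, fell by 0.79. Fatty acid synthesis showed the opposite majority, with 6 of 15 genes higher and 1 lower and a median of 0.12. Elovl6, a chain-elongating enzyme, rose by 1.22 (adjusted p = 0.0006133), Fasn, fatty acid synthase, rose by 0.84 (adjusted p = 0.001802) and Srebf2, a sterol-responsive transcription factor, rose by 0.74 (adjusted p = 0.001221). Me1, the cytosolic malic enzyme that supplies NADPH, fell by 1.29 (adjusted p = 0.0006133). These 8 calls held in all 15 alternatives.

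Other genes beside the members' steps included both directions. Of 24 other enzymes and carriers of acyl-CoA metabolism, most of them mitochondrial, 7 fell and 0 rose, with a median of -0.26. Pdk4, the kinase that closes pyruvate dehydrogenase when fatty acids are burned, had values 2.44-fold lower (difference -1.29, adjusted p = 0.001654). Acad11, a further acyl-CoA dehydrogenase, fell by 0.76, Acot7, a mainly cytosolic thioesterase, fell by 0.54, and Nudt7, a peroxisomal CoA diphosphatase, fell by 0.56, the last with its call lost without transgenic 2 (adjusted p = 0.05251). Of 19 other uptake, binding and synthetase genes 4 fell and 3 rose. Acss1, the mitochondrial acetyl-CoA synthetase, fell by 2.38 and Vldlr, a lipoprotein receptor, fell by 0.75, while Acsl4, a long-chain acyl-CoA synthetase that prefers arachidonate, rose by 0.92 and Acss3 by 0.79. A dim Acss1 probe had a difference of -0.21 (adjusted p = 0.4303 when all probes were fitted as rows).

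Peroxisomes shorten very long and branched chains by their own set of enzymes. Of 17 measured peroxisomal genes 4 fell and 1 rose, with a median of -0.18. Scp2, which includes a peroxisomal thiolase, fell by 0.72 (adjusted p = 0.002037). Amacr, a racemase for branched chains, fell by 0.46 (adjusted p = 0.02523), with the call lost without any 1 array but control 3, at adjusted p-values from 0.06856 to 0.09073. Phyh, which starts the breakdown of phytanic acid, fell by 0.38 (adjusted p = 0.02163), with the call lost without control 1 (0.08037), transgenic 1 (0.07906) or transgenic 2 (0.08992), with the replicate number as a block (0.05022) and with the mean of both its probes (0.562). Decr2, the peroxisomal counterpart of Decr1, rose by 0.50 (adjusted p = 0.03272), a call lost when any 1 of the 6 arrays was left out (0.05377 to 0.08915) and with the sex term (0.06806). Of 6 measured genes for ketone synthesis and transport, Slc16a1, which carries lactate and ketone bodies across the plasma membrane, fell by 0.53 (adjusted p = 0.005398) and 0 rose. Slc16a3, the lactate exporter of glycolytic cells, had a difference of 0.29 (adjusted p = 0.09946), Slc16a4 of -0.30 (0.2908) and Slc16a7 of 0.16 (0.3823).

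**Figure D5:**
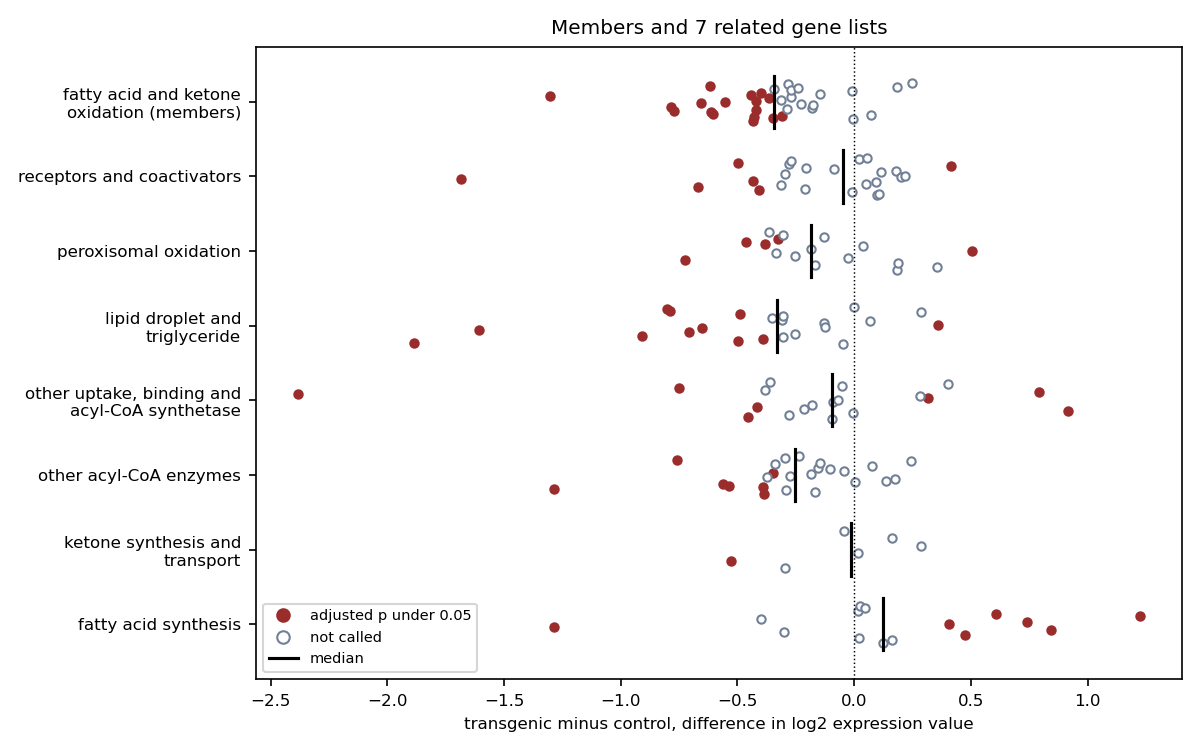
Difference between transgenic and control samples in log2 expression value (x axis) for the members and 7 related gene lists (y axis; points are spread vertically only for legibility), with filled red points for an adjusted p under 0.05 and black bars for medians. The members' median lies at -0.34 and that of fatty acid synthesis at 0.12.

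Whole hearts hold several cell types, and in bulk RNA fewer cells of a type and less RNA per cell cannot be told apart. Cardiomyocyte markers were bright, with means from 10.37 to 13.49, and 0 of 10 were called. The highest mean of any gene was 13.77, so several of these markers lie near the top of the scale. Whether differences are compressed there was not tested. Their summed level, after undoing the log2 scale and adding over the list, was 68410 to 68948 in control and 66152 to 67158 in transgenic samples. Endothelial markers were lower, with 6 of 10 called lower and 0 higher and a summed level of 7330 to 7709 in control and 5408 to 6178 in transgenic samples. This bears on Lpl and Cd36, which act at or are made by the capillary wall, and the part of endothelial cells in their values was not tested. Fabp4, which capillary endothelium and adipocytes express, had a difference of -0.05 (adjusted p = 0.7577), and Gpihbp1, the capillary anchor of lipoprotein lipase, -0.28 (adjusted p = 0.1824). Fabp4 and Gpihbp1 were named after their values were seen, while all 10 genes of the endothelial list had negative differences. Macrophage markers were also lower, with 7 of 10 called and a summed level of 1545 to 1779 against 974 to 1144, and of the smooth muscle and pericyte markers 3 of 10 fell and 1 rose (12824 to 14147 against 8933 to 9895). The smooth muscle and pericyte sum was carried mostly by Acta2 and Rgs5, which fell by 0.52 and 0.65. In that list 6 of 10 genes were not called, and Cnn1 rose by 1.41. The adipocyte list had 0 of 9 called (5882 to 6437 against 5697 to 6034), a sum carried almost wholly by Fabp4. Without Fabp4 the sum was 415 to 437 in control and 358 to 386 in transgenic samples, with Adipoq near the bottom of the scale at a mean of 4.06. Fibroblast markers had 1 of 10 called lower and 1 higher, and 3 erythroid markers had 0 called. The part of these cell types in the members' differences was not tested.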

How the data were processed

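Total RNA of 6 mouse heart samples (100 ng each) was labelled with biotin after poly(T)-primed cDNA synthesis and in vitro transcription, per the labels' protocols. The authors deposited a table of log2 values for every probe on every array. Among the tools, oligo, RMA and limma are listed in the submitters' processing notes, with no versions. The sources used here do not give the annotation or any probe filter. Array medians lay between 5.452 and 5.538, arrays of a group correlated at 0.9897 to 0.9946 over genes and arrays of different groups at 0.9815 to 0.9868, and 0 pairs of arrays were identical. RMA puts all arrays on similar quantiles, so a change shared by most genes would not be seen.

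Of 41345 probes, 23521 had 1 gene symbol in the platform annotation, 1814 several and 16010 none. Per gene the single-symbol probe with the highest mean over the 6 arrays was used. Gene identifiers of all 33 measured members matched RefSeq (GRCm38.p6).

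The test was limma's moderated one (version 3.58.1, R 4.3.3, lmFit and eBayes, no covariates, 4 residual degrees of freedom), with Benjamini-Hochberg adjustment over 22180 genes and a threshold of 0.05. Members, related lists and marker lists were chosen with earlier results of these data known. The related lists were described through the 4 smallest p-values of each, plus Ppara, Ppargc1a, Esrra and Pdk4. Fabp4, Pparg and Cidec are on a related and on the adipocyte list. Ppargc1b, Fabp4, Gpihbp1 and Adipoq were named after their values were seen, and so were the pairs Hadha with Hadhb and Oxct1 with Acat1. Alternatives covered dim genes, probes per gene, normalization, array weights and variance model, a block for the replicate number, a sex term from Xist and each array left out. The planned ratio of Cpt1b to Cpt1a was not computed, because Cpt1b had no probe of its own. The number of arrays limits the precision.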

Additional observations from a re-analysis of the deposited data

How the results depend on the processing

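The count of all genes called was 2465 and ranged from 1878 with a sex term to 3168 with an intensity trend and robust variance, with other normalizations, probe rules and filters between, and from 1171 to 2249 with 1 array left out. The number of members called lower ranged from 13 with the replicate number as a block to 24 with an intensity trend and robust variance, and from 7 to 17 with 1 array left out. Members called higher were 0 except with an intensity trend and robust variance, where the count was 1, Cpt1a. Of 17 members called lower, 7 held in all 15 alternatives, 10 lost the call in at least 1, and 0 changed sign. Of the 16 members not called, 8 passed in at least 1 alternative.

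Signs turned only in 3 members with differences near 0. With 1 array left out Acacb ranged from -0.05957 to 0.02938, Acot13 from -0.06121 to 0.05075 and Bdh1 from -0.02533 to 0.1535, and with array weights Acacb was at 0.02871. Same-numbered samples did not deviate together (correlations of 0.0163, -0.13 and 0.0138 over genes), and differently numbered pairs ranged from -0.111 to 0.108. The numbers thus showed no pairing, but deviations from means of only 3 arrays cannot exclude one. With the replicate number as a block 1996 genes and 13 members were called, and Acadm, Acads, Acaa2 and Ucp3 lost their calls. The planned ratio of Cpt1b to Cpt1a was not run. Dim probes such as that of Bdh1 limit what can be measured for their genes.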
